A study of Mus musculus with 6 samples.

Results

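The genes described here are 38 rows of the deposited gene count table, of 55401 rows in all: 14 tubulin genes and 24 genes for proteins that bind, cap, decorate or move along microtubules. They were chosen by gene name, not by their values, and were matched to the table through Ensembl identifiers. The table came from bulk RNA sequencing of cerebral cortex from C57BL/6 mouse embryos at embryonic day 18, collected after matings of Csmd3 heterozygous parents. It held 3 libraries from wild-type embryos and 3 from homozygous Csmd3 knockout embryos (Csmd3-/-), with no further treatment or allele in either group. The labels do not say that libraries of a group came from separate embryos, so p-values measure the spread between these libraries, which may be technical. The design asks how the knockout cortex differs from the wild-type cortex.

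Microtubules are hollow polymers of alpha and beta tubulin dimers that grow from templates containing gamma tubulin. In the developing cortex they pull nuclei and cell bodies forward during migration, and they form the tracks and struts of growing axons and dendrites. Each tubulin is encoded by several genes, called isotypes, which are alike through most of the protein and differ chiefly at the acidic end of the chain, where many associated proteins and modifying enzymes act. Variants in several of the genes below, among them TUBA1A, TUBB2B, TUBB3, DCX and PAFAH1B1 in people, are known causes of cortical malformations.

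The ends of 4 beta tubulin coding sequences are shown first, because they show how alike or unlike the isotypes can be. Each line gives the last 63 bases of the coding sequence with its stop codon, 5′ to 3′ on the coding strand, from GENCODE M21 on GRCm38 (mm10). Capitals mark GAA and GAG codons read in frame, which encode the acidic residue glutamate. They are at chr13:34074468-34074530 (minus strand) for Tubb2a, chr13:34127471-34127533 (minus) for Tubb2b, chr8:123421620-123421682 (plus) for Tubb3 and chr17:35834982-35835044 (minus) for Tubb5.
Tubb2a: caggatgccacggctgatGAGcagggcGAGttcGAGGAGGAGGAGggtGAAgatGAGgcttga
Tubb2b: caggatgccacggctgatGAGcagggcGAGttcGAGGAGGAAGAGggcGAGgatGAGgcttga
Tubb3: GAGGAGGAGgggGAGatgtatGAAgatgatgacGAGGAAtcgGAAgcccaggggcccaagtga
Tubb5: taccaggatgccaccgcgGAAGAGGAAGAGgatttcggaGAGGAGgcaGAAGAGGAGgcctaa

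Tubb2a and Tubb2b were identical at 95.2% of these 63 bases and at 96.5% of their whole coding sequence. When the ends were aligned, Tubb3 matched Tubb2a at 46.4% and Tubb2b at 44.4% of positions, any gaps included. Over the whole coding sequence, Tubb3 matched them at 83.2% and 83.4%. Among the alpha tubulins, Tuba1a shared 98.3% of its coding sequence with Tuba1b and 97.1% with Tuba1c. Counting stretches of 100 bases of the transcript with the longest coding sequence that also occur in another gene, 65.1% of Tuba1a, 69.5% of Tuba1b, 53.4% of Tuba1c, 36.9% of Tubb2a and 27.8% of Tubb2b were shared. For Tubb4b it was 29.2%, mostly with the pseudogene Tubb4b-ps1. None was shared for Tubb3, Tubb4a, Tubb5, Tubb6 or Tuba4a. The split of counts within the Tuba1 trio and within the Tubb2 pair is therefore uncertain, and their sums are given beside the single genes.

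Csmd3 itself (ENSMUSG00000022311.15, chr15:47580637-48792063, minus strand) was read first as a check of the genotypes. The wild-type libraries held 992, 765 and 867 counts of it and the knockout libraries 675, 653 and 543, so every knockout library was lower but none was near 0. It differed by -0.59 on the log2 scale (SE 0.13, adjusted p = 0.0233). The adjusted p was 0.0826 when wild-type library 1 was omitted and 0.0905, 0.0741 and 0.101 when knockout library 1, 2 or 3 was, and over 16 alternative fits it ranged from 0.00084 to 0.38. No source used here gives the exons that the knockout removes, and this gene checks the labels weakly. Library totals ran from 54244288 to 68269607 deposited counts, correlations between libraries of log2 CPM from 0.954 to 0.977, and 19844 genes passed the filter on low counts. CPM below is the count scaled to library size, and a gene is called higher or lower when its adjusted p, from the quasi-likelihood test of edgeR, is under 0.05.

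Several abundant tubulin messages fell in the knockout cortex. Of the 13 tubulin genes tested, 6 passed the test as lower (Tuba1a, Tuba1c, Tubb2a, Tubb2b, Tubb3 and Tubg2), 1 as higher (Tubb6), and 6 did not pass. Among all genes tested, 7.74% were called, 2.53% lower and 5.21% higher. At an unadjusted p under 0.05 in the same edgeR test, 1927 of these 19844 genes were lower and 2477 higher. The median log2 fold change of the tubulins was -0.32, against 0.00 over all genes tested, and 11 of the 13 had a negative sign. In 11 tubulins every knockout library was below every wild-type library, in the other two every knockout library was above, and no tubulin overlapped between groups. Over all genes tested, 13.5% were separated in this way with knockout lower and 15.6% with knockout higher. Summed over the 13 tested genes, tubulins made 28506.4, 30832.5 and 26358.8 CPM in wild type and 23197.4, 22824.3 and 21708.7 CPM in knockout, and the groups did not overlap.

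**Figure D1:**
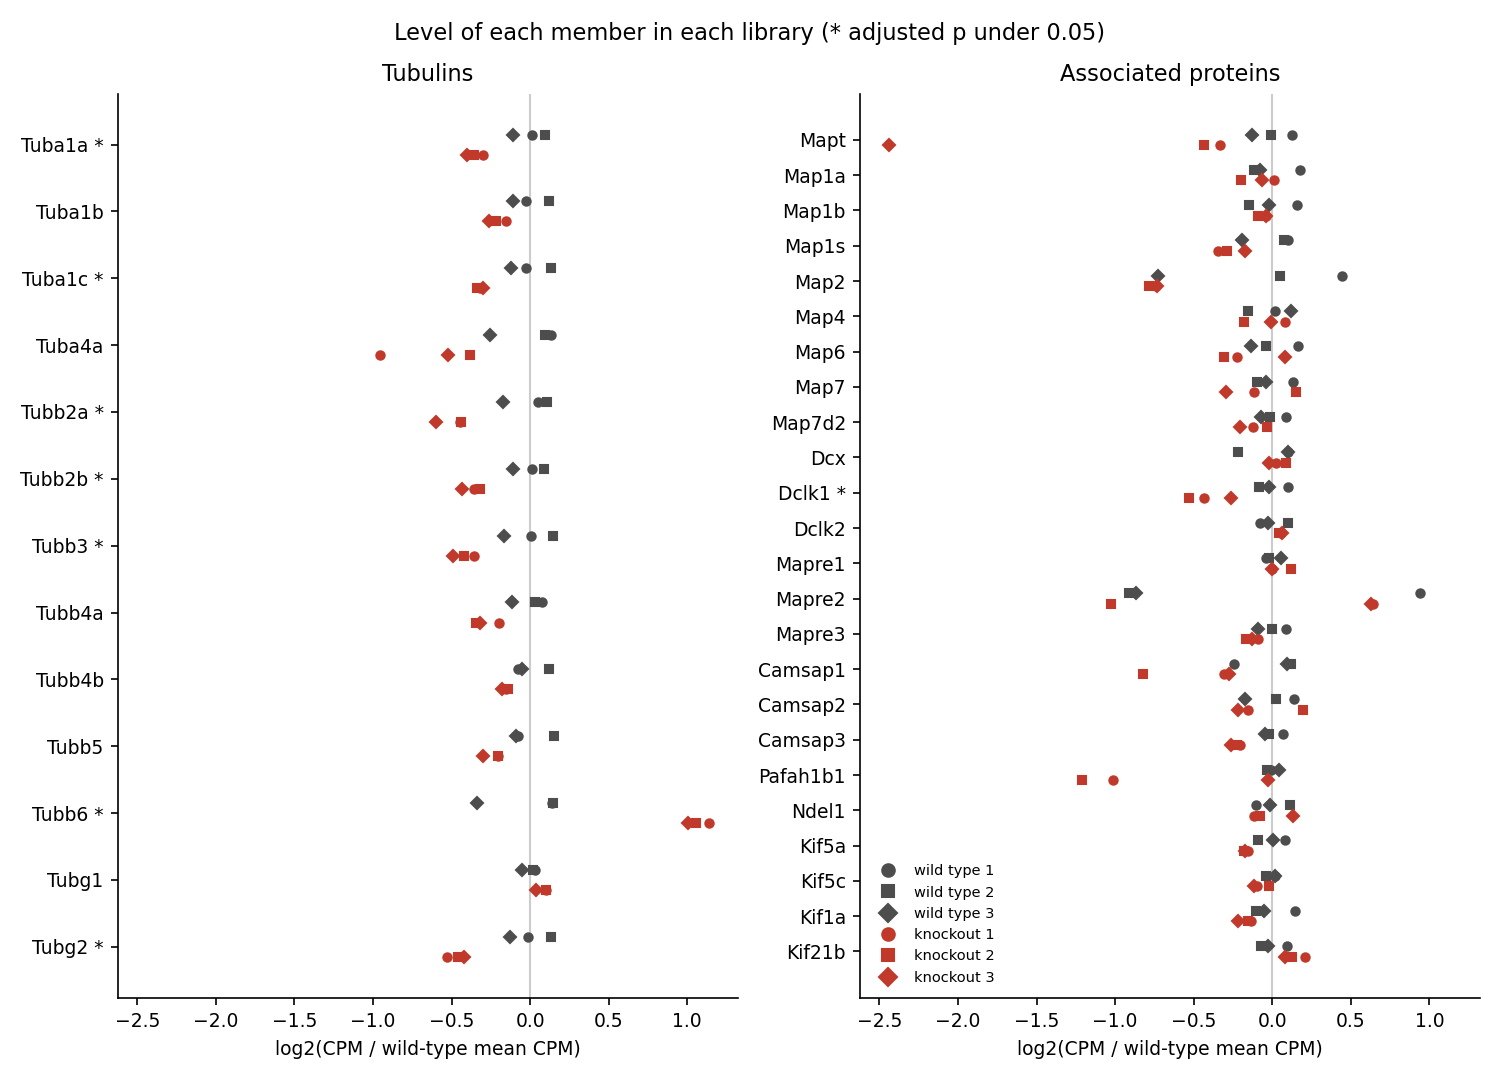
Level of each of the 37 tested members in each library, as log2 of its CPM over the wild-type mean CPM (horizontal axis); grey marks are wild-type libraries 1 to 3, red marks knockout libraries 1 to 3, and a star marks an adjusted p under 0.05. Of the 13 tubulins, 11 have 3 red marks to the left of 3 grey marks, Tubb6 has them to the right, and Mapt, Map2, Pafah1b1 and Mapre2 spread widely within a group.

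Tuba1a (ENSMUSG00000072235.6, chr15:98949837-98953703, minus strand), the main alpha tubulin of migrating neurons, was the most abundant member. It stood at 10320.1, 10922.9 and 9505.3 CPM in wild type and 8309.4, 7998.2 and 7748.0 CPM in knockout, with a log2 fold change of -0.35 (SE 0.07, adjusted p = 0.016), a fall by 21.8%. All 3 knockout libraries lay below the lowest wild-type library. Tuba1c (chr15:99029891-99038110, plus strand), a broadly expressed alpha isotype, gave 1026.8, 1148.8 and 962.4 CPM in wild type and 837.6, 829.2 and 849.8 CPM in knockout (-0.32, SE 0.08, adjusted p = 0.0333). Here too the groups were apart. Tuba1b, the third gene of this chromosome 15 cluster, had 1465.6, 1624.1 and 1385.5 CPM against 1343.0, 1284.2 and 1247.0 CPM and did not pass (-0.21, SE 0.07, adjusted p = 0.134). With the trio and the overlapping gene Gm49450 counted as 1 gene, to set aside the uncertain split, the sum was lower by -0.33 on the log2 scale (SE 0.07, adjusted p = 0.0206).

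The remaining alpha isotypes were rare. Tuba4a had 13.8, 13.4 and 10.6 CPM in wild type and 6.48, 9.64 and 8.77 CPM in knockout. The groups did not overlap, but the difference did not pass (log2 fold change -0.60, SE 0.18, adjusted p = 0.0757). Exons of Tuba4a overlap 1379 bases of the opposite-strand gene Stk16, and no source used here says whether counting used strand. Tuba8 had no count in any wild-type library and 0, 8 and 0 counts in the knockout libraries. It did not pass the filter on low counts and was not tested. It also lay under the floor of 12 counts (3 fragments) over a group, so no fold is given.

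The beta tubulins that are rich in neurons, Tubb2a, Tubb2b and Tubb3, fell. Tubb2a (ENSMUSG00000058672.7, chr13:34074274-34078007, minus strand) went from 1859.4, 1933.6 and 1588.9 CPM to 1318.5, 1324.4 and 1186.5 CPM, a log2 fold change of -0.49 (SE 0.09, adjusted p = 0.00994). Tubb2b (ENSMUSG00000045136.6, chr13:34126748-34130466, minus strand), the most abundant beta isotype and a gene of migrating cortical neurons, went from 5838.4, 6163.0 and 5383.1 CPM to 4528.3, 4652.1 and 4299.0 CPM (-0.37, SE 0.07, adjusted p = 0.0144). In both genes the highest knockout library was below the lowest wild-type library. Counted as 1 gene, the Tubb2 pair was lower by -0.40 (SE 0.07, adjusted p = 0.0124). Tubb3 (ENSMUSG00000062380.4, chr8:123411424-123422015, plus strand), the beta isotype used to mark neurons, had 3106.0, 3423.0 and 2751.6 CPM in wild type and 2417.0, 2312.6 and 2204.0 CPM in knockout. It fell by 25.3% without overlap between groups (-0.42, SE 0.09, adjusted p = 0.018).

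Of the remaining beta isotypes, 3 did not pass. Tubb4a, known from neurons and oligodendrocytes, lay just outside the threshold with 406.0, 392.8 and 355.2 CPM in wild type and 336.1, 302.6 and 309.1 CPM in knockout (-0.28, SE 0.08, adjusted p = 0.0504). Tubb5, an isotype of dividing and newborn cells, had 4186.1, 4896.1 and 4136.4 CPM against 3822.1, 3831.5 and 3584.0 CPM (-0.23, SE 0.08, adjusted p = 0.114). Tubb4b did not pass either (-0.16, adjusted p = 0.236). In each of these genes the knockout libraries were the lower ones without overlap.

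Tubb6, a beta isotype found in many tissues outside the nervous system, was the only tubulin to rise. The table lists 587, 575 and 405 counts in wild type against 1354, 1177 and 995 counts in knockout. These amount to 9.83, 9.91 and 7.07 CPM against 19.7, 18.6 and 17.9 CPM. Every knockout library was well above every wild-type library, at a mean 2.10-fold higher level (log2 fold change 1.07, SE 0.15, adjusted p = 0.00314). The call held when any 1 of the 6 libraries was left out (adjusted p from 0.00281 to 0.0176) and was lost with knockout libraries 2 and 3 left out together (adjusted p = 0.0628), the highest of its 16 alternative fits, which began at 9.33e-09. The rise of Tubb6 went with markers of several, but not all, types of non-neural cells. None of 7 erythroid markers was called, although all 7 had a positive sign. Their sums overlapped, at 1518.9 to 2104.1 CPM in wild type and 1885.0 to 2201.8 CPM in knockout. Summed markers of meningeal fibroblasts and mural cells were 132.2 to 143.3 CPM in wild type and 699.1 to 867.5 CPM in knockout, with 11 of 12 called higher. Endothelial markers summed to 234.8 to 266.2 CPM in wild type against 401.1 to 493.7 CPM in knockout (6 of 8 called higher), and those of microglia and macrophages to a mean of 32.9 against 116.9 CPM (8 of 10 called higher). Of the meningeal and mural markers, Lum was at 0 in wild-type library 2 and Acta2 in wild-type library 3. The part of these cells in the value of Tubb6 was not tested.

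The gamma tubulin genes, which serve nucleation and not the microtubule wall, differed from each other in sign. Tubg2 (ENSMUSG00000045007.9, chr11:101155907-101161787, plus strand), the copy enriched in brain, had 27.4, 30.3 and 25.4 CPM in wild type and 19.2, 20.1 and 20.7 CPM in knockout. It was lower in all 3 knockout libraries (-0.47, SE 0.10, adjusted p = 0.0258). Tubg1, its ubiquitous neighbour on chromosome 11, had 53.9, 53.3 and 50.8 CPM in wild type against 56.6, 56.4 and 54.1 CPM in knockout. The knockout libraries of Tubg1 were the higher ones by a small margin that did not pass (0.08, adjusted p = 0.583), and the difference between both genes was not tested.

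How many tubulins passed depended on single libraries, whereas their signs did not. With all libraries 6 tubulins were called lower. The test called 3 when wild-type library 1 was left out, 4 when library 2 was and 9 when library 3 was, the added ones being Tuba1b (adjusted p = 0.0484, up to 0.847 over its 16 alternative fits), Tuba4a (0.0407, up to 0.211) and Tubb4a (0.0182, up to 0.763). It called 1 without knockout library 1, 1 without knockout library 2 and none without knockout library 3, where 8 had an unadjusted p under 0.05. Lower calls over all genes moved too, from 503 to between 137 (without knockout library 3) and 956 (without wild-type library 3). Tubb2a lost its call only without knockout library 3 (adjusted p = 0.0614, from 3.47e-05 to 0.347 over 16 alternative fits), while Tuba1a and Tubb2b lost theirs whichever knockout library was left out (highest adjusted p 0.0935 and 0.0841, and 0.58 and 0.468 over the 16 fits). Tubb3 did so too (highest 0.0983) and also without wild-type library 1 (0.052), with a highest value of 0.531 over the 16 fits. Tuba1c and Tubg2 kept their calls in the omission of wild-type library 3 and lost them in the other five, where the highest adjusted p was 0.137 and 0.102. DESeq2 called 8 tubulins lower and limma-voom 7. Over all genes tested, DESeq2 called 921 lower and limma-voom 563, against 503 by edgeR. In every one of the 16 alternative fits the 6 lower tubulins had a negative fold change.

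**Figure D2:**
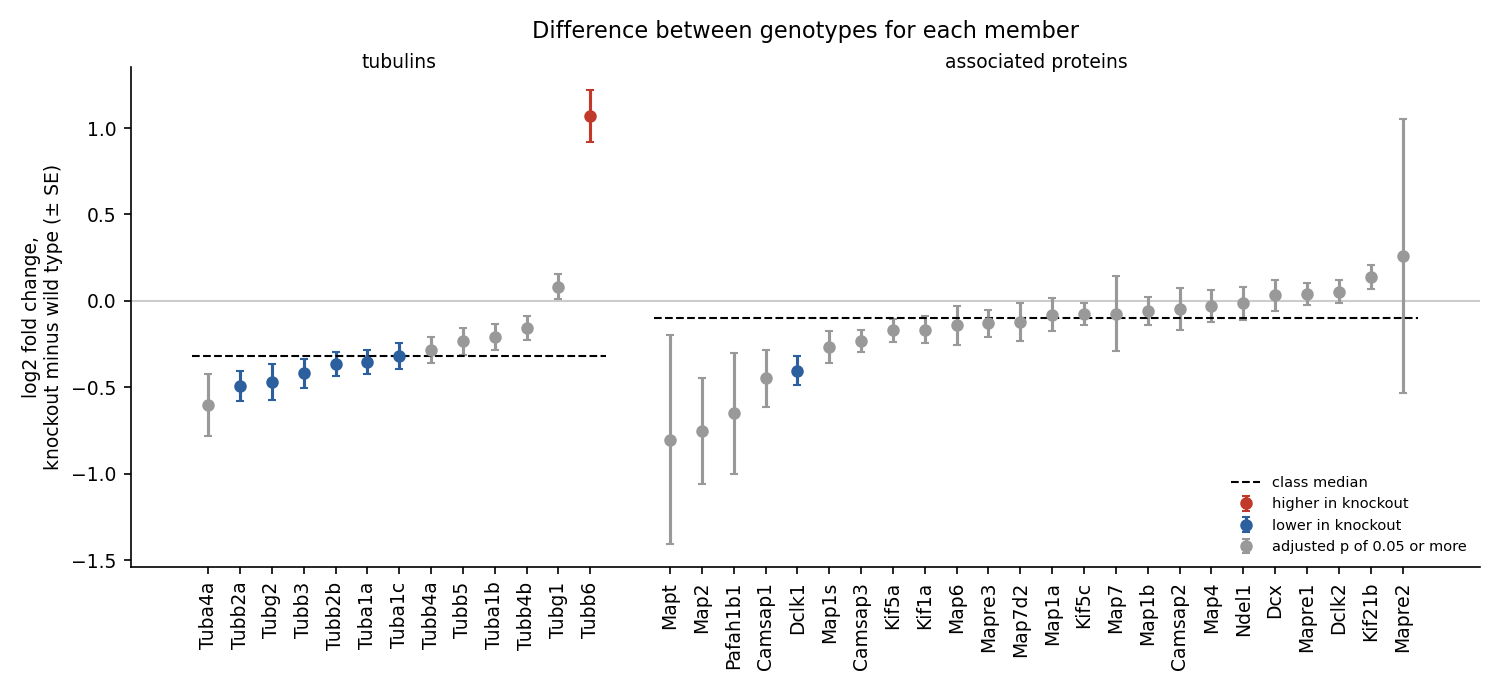
Log2 fold change (knockout minus wild type, vertical axis) of each tested member with its SE, ordered within class; blue is called lower, red higher, grey not past the threshold, and dashed lines mark the class medians. The tubulin median lies at -0.32 and that of the associated proteins at -0.10, and Mapt, Map2, Pafah1b1 and Mapre2 carry the widest bars.

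Marker lists of neurons were not uniform in direction. Summed CPM of 12 general neuronal markers was 2717.1 to 3052.1 in wild type and 2530.3 to 2662.8 in knockout, with 3 called lower and none higher by edgeR (1 higher at an unadjusted p under 0.05, 1 by DESeq2 and none by limma-voom). Markers of cortical projection neurons overlapped between groups, with 3300.7 to 3569.4 CPM in wild type and 3360.0 to 3907.6 CPM in knockout and 1 of 10 called lower. Their median log2 fold change was 0.15, with 7 of 10 positive. That of the general neuronal markers was -0.18, with 11 of 12 negative. Of 10 markers of inhibitory neurons, 2 were called lower (411.6 to 506.3 against 330.4 to 404.0 CPM). Their median log2 fold change was -0.34, and all 10 were negative. Markers of dividing cells rose, with 7 of 10 called higher (483.7 to 604.9 against 783.6 to 807.0 CPM), and 3 of 10 markers of radial glia and progenitors did (1250.9 to 1424.3 against 1410.9 to 1526.2 CPM). Choroid plexus markers summed to 0.8 to 1.2 CPM in wild type and to 9.5, 44.7 and 481.2 CPM in knockout (1 of 5 tested called higher). The defining marker Ttr had 4, 0 and 0 counts in wild type and 131, 2262 and 25057 counts in knockout. In knockout library 1, Folr1, Kcne2 and Otx2 were at 0. Folr1 was at 0 in every wild-type library, and Otx2, Clic6 and Kl in wild-type libraries 2 and 3. In bulk tissue, fewer cells of a type and less RNA per cell cannot be told apart, and the part of these cells in the tubulin values was not tested.

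**Figure D3:**
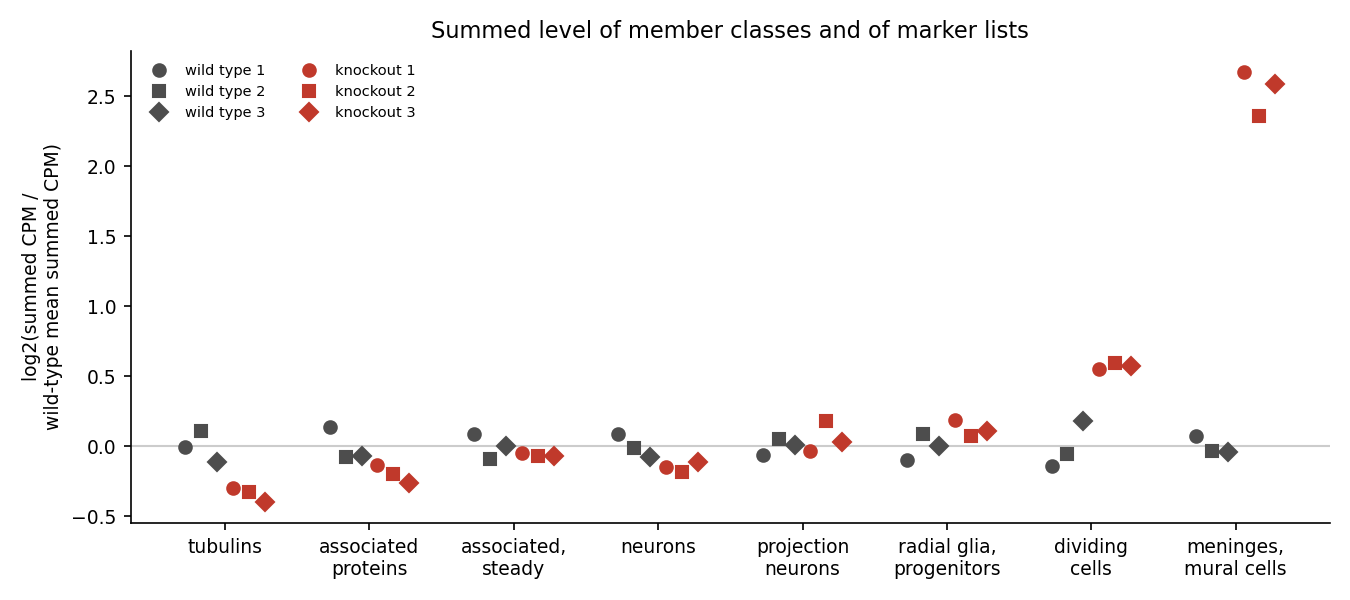
Summed CPM of tubulins, associated proteins and marker lists in each library, as log2 over the wild-type mean (vertical axis); grey marks are wild-type and red marks knockout libraries. The steady associated proteins leave out 4 genes with a more than 2-fold spread within a group; their red marks lie within the grey range, those of tubulins below it and those of meningeal and mural markers far above it.

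Per unit of exon length, the make-up of the tubulin pools differed between groups by at most 1.83 percentage points for any isotype. Tuba1a was 82.26%, 81.53% and 81.93% of alpha tubulin in wild type against 80.95%, 80.86% and 80.53% in knockout, with means of 81.9% ± 0.364 against 80.8% ± 0.223 (SD, n = 3). The Tuba1b share was 11.5% ± 0.213 in wild type and 12.5% ± 0.0633 in knockout, without overlap, and that of Tuba1c overlapped (6.58% ± 0.159 and 6.67% ± 0.27). Reads shared within the trio enter these shares. Tubb2b was 36.7% ± 0.668 of beta tubulin in wild type and 36.6% ± 0.541 in knockout, and Tubb3 24.0% ± 0.581 and 23.1% ± 0.489. Both overlapped between groups. Tubb5, whose sequence shares no stretch with other genes, took 18.24%, 19.68% and 19.71% in wild type against 20.95%, 21.05% and 21.12% in knockout, a mean difference of 1.83 percentage points without overlap. The Tubb2a share was lower in all 3 knockout libraries (16.2% ± 0.55 against 14.8% ± 0.313), and Tubb6 made 0.053% ± 0.00636 in wild type and 0.144% ± 0.00405 in knockout. These shares are a description and were not tested, and the levels behind them depend on the length chosen. As a share of plain counts, for example, Tubb5 was 28.1% in wild type and 30.4% in knockout.

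**Figure D4:**
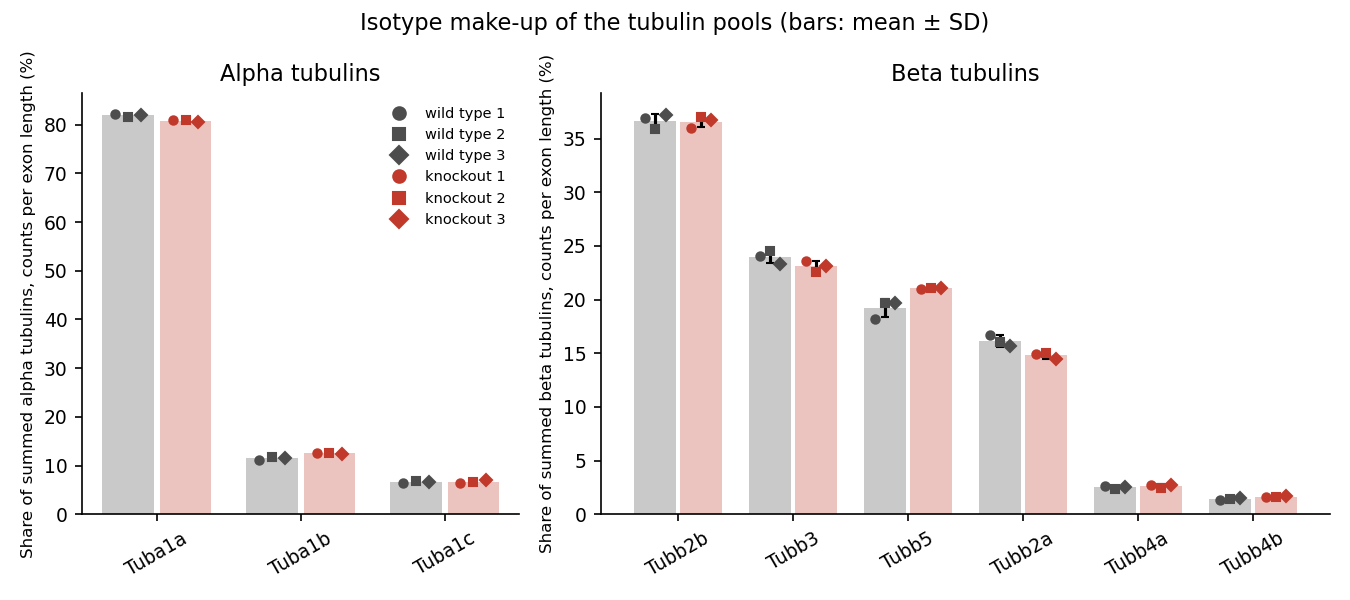
Share of each isotype in the summed alpha (left) or beta (right) tubulin counts per exon length, in percent (vertical axis); bars are group means with SD (n = 3) and marks are libraries. Tuba1a makes 81.9% of the alpha pool in wild type and 80.8% in knockout, and the 3 knockout marks of Tubb5 lie above its wild-type marks.

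The promoters of 3 lower tubulins are printed because these genes fell together and have an entry in the RefSeq promoter table (build GRCm38.p6), which runs from 250 bases before to 50 after the start of the gene. They are Tuba1a at chr15:98953452-98953751 (minus strand), Tubb2a at chr13:34077959-34078258 (minus) and Tubb3 at chr8:123411303-123411602 (plus). Capitals mark 3 motifs on either strand: the TATA box TATAAA (or TTTATA), the CCAAT box CCAAT (or ATTGG) and the GC box GGGCGG (or CCGCCC).
Tuba1a: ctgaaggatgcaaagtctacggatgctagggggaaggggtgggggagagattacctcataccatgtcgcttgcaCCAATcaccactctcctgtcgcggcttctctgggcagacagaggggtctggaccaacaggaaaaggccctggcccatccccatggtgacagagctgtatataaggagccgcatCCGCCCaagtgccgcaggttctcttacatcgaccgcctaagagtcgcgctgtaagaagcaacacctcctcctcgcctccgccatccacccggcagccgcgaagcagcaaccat
Tubb2a: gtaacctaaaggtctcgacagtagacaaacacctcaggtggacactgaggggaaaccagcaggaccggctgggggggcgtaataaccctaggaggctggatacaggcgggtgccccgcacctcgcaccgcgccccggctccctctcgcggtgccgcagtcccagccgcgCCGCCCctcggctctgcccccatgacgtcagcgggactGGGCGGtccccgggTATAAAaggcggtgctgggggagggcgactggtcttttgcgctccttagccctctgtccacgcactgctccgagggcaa
Tubb3: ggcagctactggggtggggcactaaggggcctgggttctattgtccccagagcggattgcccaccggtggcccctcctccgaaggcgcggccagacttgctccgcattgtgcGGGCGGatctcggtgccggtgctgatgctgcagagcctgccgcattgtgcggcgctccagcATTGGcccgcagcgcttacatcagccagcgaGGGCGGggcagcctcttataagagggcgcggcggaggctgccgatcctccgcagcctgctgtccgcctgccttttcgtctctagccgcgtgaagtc

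Of the 38 members, 29 matched a promoter entry. A GC box was found in 20 of them, a CCAAT box in 11 and a TATA box in 7, a match being counted whether or not it overlapped another motif. The 29 members had 35 entries, and a member was counted if any of its entries matched. Of all 32851 promoters in the table, 35.7% held the GC box, 37.4% the CCAAT box and 13.6% the TATA box. These shares are per entry and not per gene, so they are not on the same footing as the member counts. Among the 6 lower members with an entry, 3 held the GC box, 4 the CCAAT box and 1 (Tubb2a) the TATA box. A match is a run of letters and shows no binding.

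Of the associated proteins, Dclk1 alone was called. Of 24 tested, 1 (4.17%) was called lower, against 2.53% of all genes tested, and none higher by edgeR, DESeq2 or limma-voom, and none rose at an unadjusted p under 0.05. Their median log2 fold change was -0.10, with 19 negative and 5 positive. In 8 of the 24 all knockout libraries were below all wild-type libraries (background 13.5%), in none were they above, and in 16 the groups overlapped. The class was not compared with the tubulins by a test, since genes are not replicates. DESeq2 called 3 of them lower and limma-voom 2. Without wild-type library 3 edgeR called 4, without knockout library 3 it called 2, and it called none when wild-type library 1, knockout library 1 or knockout library 2 was left out (3 lower at an unadjusted p under 0.05 each time).

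Among the lattice-binding proteins, which decorate and stabilise the microtubule wall, none of 9 passed the test in either direction, although all 9 had a negative sign (median -0.12, and 1 was lower at an unadjusted p under 0.05). DESeq2 and limma-voom called none either. Per exon length, Mapt, which encodes tau, had the highest level of all associated proteins, followed by Map1b and Dcx (797, 443 and 393 TPM, the count scaled to exon length and library, in wild type). Map1b, a protein of growing axons, had 2270.5, 1837.3 and 2007.2 CPM in wild type and 1984.1, 1915.1 and 1979.7 CPM in knockout. The knockout libraries lay inside the wild-type range (-0.06, SE 0.08, adjusted p = 0.753). The log2 fold changes of Map1a (-0.08), Map4 (-0.03), Map6 (-0.14), Map7 (-0.07) and Map7d2 (-0.12) had an adjusted p of 0.53 or more. That of Map1s was -0.27 (adjusted p = 0.127), with 102.7, 101.3 and 84.1 CPM in wild type and 75.6, 78.8 and 85.0 CPM in knockout, which overlapped in 1 library.

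In the doublecortin family, proteins that stiffen microtubules in migrating neurons, Dclk1 alone passed. Dclk1 (ENSMUSG00000027797.15, chr3:55242364-55539068, plus strand), which joins doublecortin domains to a kinase, had 661.6, 583.2 and 610.1 CPM in wild type and 458.4, 428.2 and 514.7 CPM in knockout. All knockout libraries were lower, by 24.5% on the fitted scale (-0.40, SE 0.08, adjusted p = 0.0195). The call of Dclk1 was lost without wild-type library 1 (adjusted p = 0.061), knockout library 1 (0.0902) or knockout library 2 (0.0973), with a range of 0.000839 to 0.293 over the 16 alternative fits. Dcx itself, the X-linked lissencephaly gene, had 1541.8, 1237.7 and 1542.1 CPM against 1463.2, 1533.5 and 1419.8 CPM, with the knockout libraries inside the wild-type range (0.03, SE 0.09, adjusted p = 0.886). Dclk2 gave 0.05 (adjusted p = 0.718). Whether Dclk1 and Dcx differ in their response was not tested.

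Of the CAMSAP proteins, which cap and stabilise minus ends, none passed the test with edgeR. Lower at an unadjusted p under 0.05 were 2 of 3, DESeq2 called 2 lower and limma-voom 1. Of all 19844 genes tested, 1927 were lower at an unadjusted p under 0.05, 921 were called lower by DESeq2 and 563 by limma-voom. Camsap3 was the next gene outside the threshold after Tubb4a, with 166.0, 156.5 and 153.5 CPM in wild type and 137.8, 135.6 and 132.0 CPM in knockout (-0.23, SE 0.06, adjusted p = 0.0608). Its groups did not overlap, and its exons overlap those of the opposite-strand gene Xab2 by 570 bases. Camsap1 had 221.9, 285.2 and 279.3 CPM against 211.7, 148.3 and 216.4 CPM (-0.45, SE 0.17, adjusted p = 0.168), also without overlap. Camsap2 was at -0.05 (adjusted p = 0.871).

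The kinesin motors that carry cargo along axons showed small differences, and none of 4 passed (none by DESeq2 or limma-voom, 1 lower at an unadjusted p under 0.05). Kif5a had 491.1, 435.1 and 464.2 CPM in wild type and 416.3, 408.3 and 411.4 CPM in knockout, without overlap (-0.17, SE 0.07, adjusted p = 0.166). Kif1a, a carrier of synaptic vesicle precursors, had 978.7, 826.1 and 853.4 CPM against 807.6, 797.5 and 762.1 CPM (-0.17, SE 0.08, adjusted p = 0.242). Kif5c was at -0.08 (adjusted p = 0.53). Kif21b, a kinesin that limits microtubule growth, had the highest positive fold change among the motors (0.14, SE 0.07, adjusted p = 0.28), with groups that overlapped. The end-binding genes Mapre1 (0.04, adjusted p = 0.79) and Mapre3 (-0.13, adjusted p = 0.388), whose proteins track growing plus ends, and Ndel1 (-0.02, adjusted p = 0.952), a partner of dynein, did not pass either. All these rest on groups of 3, and a missed threshold does not show that levels were equal.

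For 4 associated proteins the libraries of a single group disagreed by more than 2-fold. Mapt had 1902.7, 1739.1 and 1595.3 CPM in wild type and 1384.4, 1294.3 and 321.4 CPM in knockout. Knockout library 3 thus held 4.31-fold less than knockout library 1, although all knockout libraries were lower than wild type (-0.80, SE 0.61, adjusted p = 0.54). Without knockout library 3 the log2 fold change of Mapt was -0.38 (adjusted p = 0.084, up to 0.705 in the 16 alternative fits, whose values ran from -1.11 to -0.33). Map2, the protein that marks dendrites, had 1162.6, 886.0 and 515.4 CPM in wild type against 512.0, 496.3 and 513.6 CPM in knockout. Wild-type library 3 sat at the knockout level; with it the log2 value was -0.75 (SE 0.31, adjusted p = 0.248), and without it -1.01 (adjusted p = 0.00165, the lowest of a range to 0.817 over 16 alternative fits). Pafah1b1, which encodes the dynein regulator LIS1, had 422.8, 414.9 and 437.7 CPM against 210.5, 184.0 and 417.8 CPM. Knockout library 3 matched wild type; with it the value was -0.65 (SE 0.35, adjusted p = 0.378), without it -1.10 (adjusted p = 0.000742, against up to 0.617 in the 16 alternative fits). It was also past the threshold without knockout libraries 2 and 3 together (adjusted p = 0.00764). Mapre2, an end-binding gene, fell into high and low libraries within both groups, at 439.2, 121.7 and 125.2 CPM in wild type and 356.1, 112.1 and 353.8 CPM in knockout (0.26, SE 0.79, adjusted p = 0.895).

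**Figure D5:**
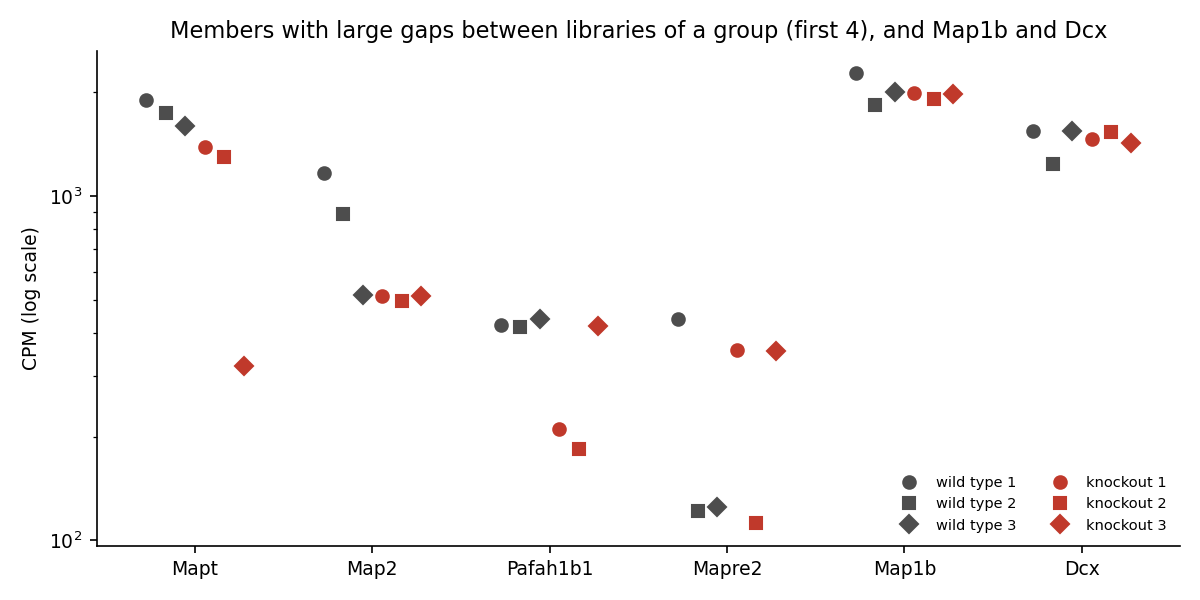
CPM on a log axis (vertical) in each library for the 4 members with a more than 2-fold spread within a group, and for the steady genes Map1b and Dcx. Both steady genes are more abundant than Map2, Pafah1b1 and Mapre2. Grey marks are wild type, red marks knockout. Knockout library 3 stands apart from the other two in Mapt and Pafah1b1, and wild-type library 3 is the lowest of its group in Map2, whereas the 6 marks of Map1b and of Dcx lie close together.

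The frequency of such spread was counted against genes above the same floor of abundance. Of 28 members with a mean CPM of at least 100, 4 (14.3%) had it, against 70 of 2566 genes (2.73%) above that floor. The largest within-group ratio of any other tested member was 1.49. For each of these 4 genes, the transcript with the longest coding sequence shares no 100-base stretch with another gene. Their other transcripts were not searched. The low libraries differ from gene to gene (knockout 3 in Mapt, wild type 3 in Map2, knockout 1 and 2 in Pafah1b1). The part of counting in these values was not tested. All 24 associated proteins summed to 13833.4, 11895.2 and 11989.9 CPM in wild type against 11477.4, 10953.1 and 10491.7 CPM in knockout, without overlap. Without the 4 genes, they summed to 9906.1, 8733.4 and 9316.3 CPM in wild type and 9014.4, 8866.4 and 8885.1 CPM in knockout, with the knockout libraries inside the wild-type range, and their median log2 fold change was -0.08. The median over these 20 genes of the log2 deviation from the wild-type mean did separate the groups, at -0.04 to 0.09 in wild type and -0.12 to -0.11 in knockout.

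Genes that build, modify or use microtubules beyond the 38 members were called at a rate near that of all genes. Of 121 listed, 115 were tested, 4 (3.48%) were called higher and 5 (4.35%) lower, against 5.21% and 2.53% of all genes tested, with a median log2 fold change of -0.03. None of 14 genes of tubulin folding, the chaperonin subunits and cofactors that make dimers, passed (median -0.12, 13 negative, 1 lower at an unadjusted p under 0.05, none by DESeq2 or limma-voom). None of 19 tested genes that add or remove modifications of tubulin passed either (3 lower at an unadjusted p under 0.05, 1 by DESeq2 and none by limma-voom), nor did any of 7 severing genes (2 higher unadjusted, none by the other tools). Of 17 nucleation genes 1 was called, Haus5, a subunit of the augmin complex that branches microtubules in spindles, with 8.80, 9.29 and 12.7 CPM in wild type and 17.4, 17.8 and 17.4 CPM in knockout (0.77, SE 0.15, adjusted p = 0.0162). Of 19 dynein and dynactin genes 1 was called, Nde1, a dynein partner of dividing progenitors (0.58, SE 0.12, adjusted p = 0.0166). The markers of dividing cells given above rose beside both, and their part was not tested.

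The plus-end proteins Clip2 (-0.35, SE 0.09, adjusted p = 0.0355) and Slain1 (-0.31, SE 0.07, adjusted p = 0.0317) were the 2 of 12 called in their list, both lower. Clip2 had 398.6, 409.7 and 331.5 CPM in wild type against 304.8, 293.5 and 293.1 CPM in knockout, without overlap. Of 17 further genes of kinesins, their light chains and an associated subunit, 2 were called higher and 3 lower. Kif1c (0.47, SE 0.11, adjusted p = 0.0284) and Kif26a (0.26, SE 0.06, adjusted p = 0.0286) were higher. Klc1, the light chain that couples kinesin to cargo, was lower (-0.28, SE 0.07, adjusted p = 0.0356), with 458.5, 503.9 and 451.3 CPM against 391.9, 394.4 and 379.9 CPM, as were Kifap3 (-0.25, adjusted p = 0.0421) and Kif26b (-0.35, adjusted p = 0.0454). None of 8 further associated proteins and none of 2 tested rare tubulin genes passed (2 and none at an unadjusted p under 0.05, 1 and none by DESeq2 and by limma-voom).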

How the data were processed

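The values are estimated counts (expected counts) per gene that the authors made from their reads before they were deposited, per the file headers and the submitters' notes, and they were whole numbers that needed no rounding. Among low values, 4, 8 and 12 were more frequent than the values next to them, so 1 fragment appears to add about 4 counts, and a value may carry the counting precision of a number 4 times smaller. The tools listed in the submitters' processing notes are HISAT2 2.0.5, StringTie 1.3.4, Trim Galore 0.4.4 and FastQC 0.11.9, with the build mm10. No source used here gives the counting step, the annotation or the use of strand.

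Identifiers were matched to GENCODE M21: 55141 of 55401 rows were named, and 37 of 38 members had the same versioned identifier. Unnamed rows held 0.014% to 0.0238% of counts. Groups are the genotypes in the labels. Genes passing filterByExpr were fitted with edgeR 4.0.16 (TMM, robust quasi-likelihood F-test, R 4.3.3), and p-values adjusted by Benjamini-Hochberg over 19844 genes. SE is the absolute log2 fold change over the square root of F. TPM was computed from counts per exon-union length, as mean ± SD of 3 libraries. Class medians, counts and isotype shares have no test. Alternatives were other scalings, filters, thresholds, DESeq2 1.42.0, limma-voom (limma 3.58.1), a replicate block, counts divided by 4 and omitted libraries; near-identical genes summed and a median without unsteady members were added after seeing the data. Named were all members past the threshold, the 2 nearest on each side, the most abundant, and up to 3 called genes by p per further list; other names were chosen after their values were seen. Members and lists were chosen with earlier results of these data known. The script was tested on simulated data. The ends of the alpha tubulin coding sequences are not reported here.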

Additional observations from a re-analysis of the deposited data

How the results depend on the processing

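With 3 libraries a group, the calls are less stable than the signs. All 8 called members kept their sign in the 16 alternative fits. Scalings moved the median of all genes by less than 0.1 (from -0.01 to 0.01 over the fits). Each scaling centres most genes near no change, so this small shift is no check on the calls. Leaving out 1 library gave 0 to 9 lower tubulins, 0 to 4 lower associated proteins, tubulin medians of -0.37 to -0.27 and associated medians of -0.1403 to -0.0774, with 472 to 1402 genes higher and 137 to 956 lower. Of the 7 lower members, 3, 5 and 7 stayed called without wild-type libraries 1, 2 and 3, and 1 each without knockout libraries 1, 2 and 3. Without knockout libraries 2 and 3 together, which leaves a lone library assumed to vary like the others, no tubulin was called lower (4 at an unadjusted p under 0.05) or higher (1), the tubulin median was -0.29, and 262 genes were higher and 43 lower, so that few calls of any kind remained.

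The labels do not say that replicate numbers pair the libraries. Same-numbered libraries correlated at 0.028, -0.003 and 0.002 in their deviations from the group mean, and differently numbered ones at -0.031 to 0.029. Wild-type libraries 1 and 2 both correlated best with knockout library 1, and wild-type library 3 with knockout library 2. With 3 libraries a group, these values cannot exclude a pairing. With the replicate block, 686 genes were higher and 255 lower; 5 of the 7 lower members stayed called, and Tuba1c (adjusted p = 0.0704) and Tubg2 (0.0677) did not. Associated proteins called lower were 2 with counts divided by 4, 3 with DESeq2 (921 genes lower), 2 with limma-voom, 2 at a threshold of 0.1 (918 genes lower) and 0 at 0.01, where 1 tubulin and 89 genes were lower and 418 higher. Without a filter on low counts the tubulin median was -0.29.

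Signs turned in 16 fits of 8 members that were not called. Over the omissions of 1 library the log2 fold change ran from -0.1334 to 0.0057 for Map1a, -0.1258 to 0.0164 for Map1b, -0.1008 to 0.0455 for Map4, -0.1934 to 0.0264 for Map7, -0.1772 to 0.0338 for Camsap2, -0.0918 to 0.0438 for Ndel1, -0.0424 to 1.1387 for Mapre2 and -0.0662 to 0.084 for Dcx. Without knockout libraries 2 and 3 it was 0.0918 for Map4 and 0.0228 for Map1a. The cause was not tested.

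Isotype shares depend on the length used. By plain counts, Tuba1a was 80.1% in wild type and 78.9% in knockout, Tubb3 19.7% and 18.7%, and Tubb5 28.1% and 30.4%. By the longest transcript, they were 80.4% and 79.2%, 22.4% and 21.4%, and 22.5% and 24.5%, and Tubb2b 35.95% and 35.7%. Depth limits Tuba8, the rarest member, which stayed under 12 counts in each group.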
